A study of Mus musculus with 18 samples.

Results

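Klk6 and Klk8 are secreted serine proteases of the kallikrein-related family. They were followed in 18 mouse hippocampus samples as 2 of 13121 named genes that passed the filter on low values, and each is measured by 1 Affymetrix probe set. The pair was chosen by name, with the rise of Klk6 in the aged groups already known, so the differences of both genes between the aged and the young samples are given as a description without a test. The genes that follow Klk6 within groups were ranked on the same values and are a description as well.

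Kallikrein-related peptidases are made as inactive precursors and cut their targets outside the cell, where serpins and other inhibitors restrain them. In the rodent central nervous system Klk6 is made mainly by oligodendrocytes, can cut myelin basic protein, and can signal through protease-activated receptors. Klk8, also called neuropsin, is made by hippocampal pyramidal neurons, cuts adhesion and receptor proteins such as L1cam and Ephb2, and is needed for the early phase of long-term potentiation.

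There were 6 samples from aged mice whose spatial memory was impaired, 6 from aged mice without impairment, and 6 from young mice, which the labels also call unimpaired. No treatment or genotype is named. The sources used here do not give strain, sex or exact age, or say whether each sample came from its own animal, so the p-values measure the spread between these samples, which may be partly technical. Array medians of the deposited signal ran from 23.5 to 30.5, and each array correlated with its nearest neighbour at 0.976 to 0.983. Markers of the hippocampal fields were present in every sample. Their list means on the log2 scale were 10.41 to 10.89 for CA1 neurons and 9.54 to 10.07 for dentate granule cells. Of 10 tested CA1 genes 9 had a lower mean in aged impaired than in aged unimpaired samples (median difference -0.19). Limma called 0 of them, with 4 at an unadjusted p under 0.05. The choroid plexus list mean varied widely in each group, from 7.42 to 10.68 in aged impaired, 6.90 to 10.56 in aged unimpaired and 7.51 to 10.47 in young samples. All 16 tested choroid plexus genes had a higher mean in aged impaired than in aged unimpaired samples (median difference 0.85), and all 16 had a lower mean in aged unimpaired than in young samples (median difference -0.84), with 0 called by limma and 0 at an unadjusted p under 0.05.

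Klk6 was far higher in both aged groups than in the young one. The deposited signal of Klk6 was 79.7, 251, 183, 144, 149 and 274 in aged impaired replicates 1 to 6. It was 89.8, 66.2, 71.3, 72.7, 123.0 and 254 in aged unimpaired replicates 1 to 6, and 32.0, 12.6, 26.8, 30.1, 26.6 and 30.2 in young replicates 1 to 6. All 12 aged samples lay above all 6 young samples. Among the aged unimpaired samples replicate 6 stood high, level with the 2 highest impaired samples, and among the aged impaired samples replicate 1 stood low, between the unimpaired ones.

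The median deposited Klk6 signal was 166 in aged impaired, 81.3 in aged unimpaired and 28.5 in young samples, which makes the aged impaired median 5.83 times and the aged unimpaired median 2.86 times that of the young samples. The lowest aged impaired sample was 2.49 times, and the lowest aged unimpaired sample 2.07 times, the highest young sample. On the log2(signal + 16) scale, with arrays brought to a common trimmed mean of 500, Klk6 averaged 9.16 ± 0.62, 8.45 ± 0.71 and 6.66 ± 0.40 (SD, n = 6 each) in the aged impaired, the aged unimpaired and the young samples. The offset of 16 narrows the difference of a dim gene. The young mean lay above the filter on low values, which stood at 5.92, although young replicate 2 lay below it at 5.86.

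In the limma fit over all 18 samples the Klk6 difference was 2.50 ± 0.32 (SE) for aged impaired minus young and 1.79 ± 0.32 (SE) for aged unimpaired minus young. Both comparisons share the young samples. In each, Klk6 had the 5th largest positive difference of 27022 probe sets. Groups that did not overlap, with the aged one higher, were seen for 1.12% of all probe sets in the aged impaired and 0.44% in the aged unimpaired comparison with young. In bulk tissue, more cells that make a transcript and more transcript per cell cannot be told apart.

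**Figure D1:**
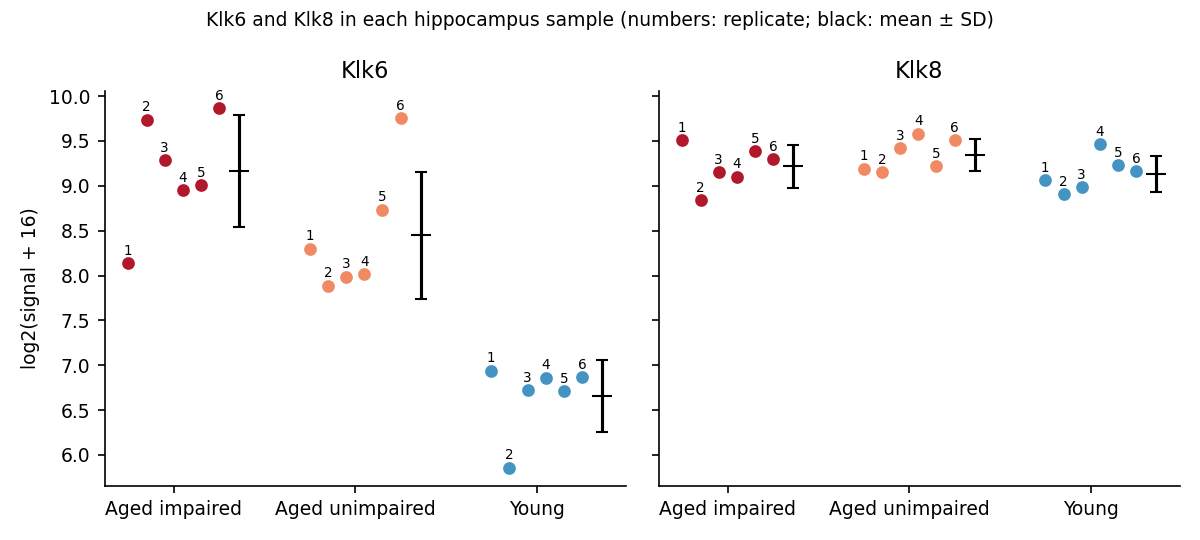
The log2(signal + 16) value of Klk6 (left) and Klk8 (right) is plotted for each of the 18 samples, numbered by replicate, with the mean ± SD of each group of 6 in black. Every aged Klk6 point lies above the highest young point at 6.94, while the Klk8 points of the 3 groups overlap between 8.84 and 9.58.

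Klk8 showed no such step. Its deposited signal was 214, 133, 166, 160, 196 and 184 in aged impaired replicates 1 to 6. It was 170, 165, 201, 225, 174 and 213 in aged unimpaired replicates 1 to 6, and 156, 139, 148, 207, 175 and 167 in young replicates 1 to 6. The groups overlapped throughout: 1 of 6 aged impaired samples and 2 of 6 aged unimpaired samples lay above the highest young sample, and 1 aged impaired sample lay below the lowest young one.

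Klk8 averaged 9.22 ± 0.24, 9.34 ± 0.18 and 9.14 ± 0.20 (SD, n = 6 each) on the log2 scale in the aged impaired, the aged unimpaired and the young samples. The difference was 0.08 ± 0.12 (SE) for aged impaired minus young and 0.21 ± 0.12 (SE) for aged unimpaired minus young. Leaving out 1 sample moved the aged impaired difference between 0.02, without replicate 1 of that group, and 0.16, without its replicate 2. All 6 aged unimpaired samples lay above the young median, and the spread within groups was 0.18 to 0.24. In order of mean level the groups ran young, aged impaired, aged unimpaired, and samples of neighbouring groups in that order overlapped. For Klk6 the order was young, aged unimpaired, aged impaired, with a gap between young and the others and an overlap of the aged groups.

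The labels divide the aged samples by spatial memory, impaired against unimpaired. The Klk6 mean was 0.72 ± 0.32 (SE) higher on the log2 scale in the aged impaired samples, with a 95% interval of 0.05 to 1.39, and 5 of 6 impaired samples lay above the unimpaired median. It did not pass in limma with Benjamini-Hochberg adjustment over 27022 probe sets (p = 0.0372, adjusted p = 0.589), and the exact 2-sided permutation test of 6 against 6 samples gave p = 0.0887, where 0.00216 is the smallest possible. In that comparison 3 probe sets, or 0.0111%, were called at an adjusted p under 0.05, and of the named genes 0.00762% rose and 0% fell. Leaving out 1 sample gave a Klk6 difference from 0.58 without aged impaired replicate 6 (limma, adjusted p = 0.772) to 0.98 without aged unimpaired replicate 6 (limma, adjusted p = 0.286). With the choroid plexus list mean as a covariate it was 0.58 (limma, adjusted p = 0.765).

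The Klk8 difference, aged impaired minus unimpaired, was -0.13 ± 0.12 (SE), with a 95% interval of -0.38 to 0.12. It did not pass either (limma, adjusted p = 0.810, exact permutation p = 0.318). It was -0.05 without aged impaired replicate 2, -0.08 without aged unimpaired replicate 4, and -0.30 with the oligodendrocyte list mean as a covariate (limma, unadjusted p = 0.0160, adjusted p = 0.639).

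Klk6 and Klk8 lie in 1 cluster of kallikrein genes on chromosome 7, where the RefSeq gene table of GRCm38.p6 lists 37 genes, 11 of them pseudogenes. Klk7, known as a protease of shed skin, is the 1 gene between them. Of 26 kallikrein genes, 19 had a probe set, and 5 had a probe set above the filter: Klk6, Klk8, Klk7, Klk1 and Klk1b21. In Klk7, Klk1 and Klk1b21 the age groups overlapped.

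Klk7 averaged 6.11 ± 0.37, 5.82 ± 0.99 and 6.03 ± 0.67 (SD, n = 6 each) in the aged impaired, the aged unimpaired and the young samples, with differences from young of 0.08 ± 0.39 (SE) and -0.21 ± 0.39 (SE). Klk1, tissue kallikrein, averaged 8.22 ± 0.24, 8.28 ± 0.29 and 8.09 ± 0.39 (SD, n = 6 each) on its brightest probe set, whose suffix marks probes that can match related genes. The other 3 probe sets of Klk1 were left out as dim. Their differences for aged impaired minus young were 0.24, -0.89 and 0.35, against 0.14 ± 0.17 (SE) on the brightest one. Without a filter, limma gave the -0.89 an adjusted p of 0.0797. Klk1b21 averaged 5.78 ± 0.99, 6.40 ± 0.52 and 6.11 ± 0.80 (SD, n = 6 each). On the tested probe sets none of Klk7, Klk1 and Klk1b21 was called in any of the 3 comparisons, with limma adjusted p from 0.744 to 0.958. The differences on those probe sets stayed within the spread of the samples.

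The other 14 kallikrein genes with a probe set were below the filter, with overall means of at most 5.67. Among them the largest age differences were in Klk10 and Klk9, which were picked out after their values were seen. Klk10 averaged 5.79 ± 0.41, 5.46 ± 0.80 and 4.80 ± 0.45 (SD, n = 6 each) in the aged impaired, the aged unimpaired and the young samples. Klk9 averaged 5.40 ± 0.81, 5.32 ± 0.62 and 6.27 ± 0.25 (SD, n = 6 each), so it was lower in the aged groups. Without a filter, limma gave Klk10 an adjusted p of 0.212 and Klk9 of 0.300 for aged impaired against young, and 0.697 and 0.521 for aged unimpaired against young.

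**Figure D2:**
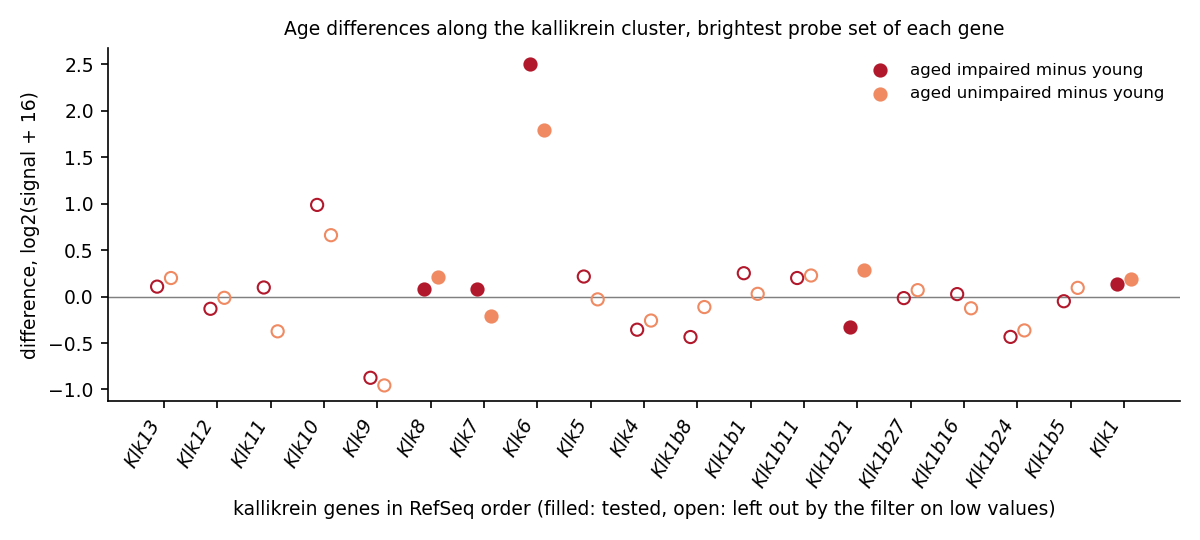
The difference between each aged group and the young group, on the log2(signal + 16) scale, is plotted for the 19 kallikrein genes with a probe set, in their order along chromosome 7. Klk6 stands at 2.50 and 1.79, and each other gene lies between -0.96 and 0.99, with open symbols for genes left out as dim.

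Other serine proteases of brain and blood were tested for 19 of 34 genes, and limma called 0 in any of the 3 comparisons. At an unadjusted p under 0.05 there were 3 for aged impaired against young, 3 for aged unimpaired against young and 2 for impaired against unimpaired. The lowest unadjusted p for aged impaired against young was that of Plat, tissue plasminogen activator, which averaged 9.52 in aged impaired and 9.89 in young samples (log2 difference -0.36 ± 0.09 SE, limma adjusted p = 0.0585), but its second probe set had the opposite sign. Prss36 had a difference of -0.40 ± 0.11 (SE, limma adjusted p = 0.0722). For impaired against unimpaired the lowest p was that of Tmprss5, a transmembrane protease of the nervous system (0.60 ± 0.20 SE, limma adjusted p = 0.434).

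Protease inhibitors were tested for 22 of 29 genes. Serpina3n, a serpin of reactive astrocytes and oligodendrocytes, was the 1 member called: it rose in the aged impaired samples, to 10.23 to 11.24 against 9.05 to 9.47 in young samples (log2 difference 1.39 ± 0.21 SE, limma adjusted p = 0.00215). It lay between 9.90 and 11.10 in the aged unimpaired samples, also above every young one, with a difference of 0.99 ± 0.21 (SE) that did not pass (limma adjusted p = 0.0787). Over all named genes 1.3% rose and 0.594% fell in aged impaired against young, and 0.114% rose and 0.0305% fell in aged unimpaired against young. Serpinh1, the collagen chaperone, had a difference of -0.55 ± 0.16 (SE, limma adjusted p = 0.100). The list's median difference was 0.02, against -0.003 over all named genes.

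Of 7 receptor genes 3 were tested and limma called 0, with 0 at an unadjusted p under 0.05. F2r, the thrombin receptor also called PAR1, averaged 8.29, 8.03 and 8.22 in the aged impaired, the aged unimpaired and the young samples, with a difference of 0.26 ± 0.14 (SE, limma adjusted p = 0.662) for impaired against unimpaired. Plaur, the urokinase receptor, and F2rl2, also called PAR3, had differences of 0.26 ± 0.20 and -0.03 ± 0.24 (SE) for aged impaired against young.

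Proteins that Klk6 or Klk8 can cut, or that belong to the same membranes, were represented by 11 tested genes of 15. Mog and Mag, both proteins of the myelin membrane, rose in aged impaired against young samples, by 0.46 ± 0.08 (SE, limma adjusted p = 0.00969) and 0.63 ± 0.14 (SE, limma adjusted p = 0.0249). The other 9, among them L1cam, Ephb2 and App, were not called, where 1.3% of all named genes rose and 0.594% fell. For aged impaired against unimpaired, Mog and Mag did not overlap between the groups, with differences of 0.36 ± 0.08 and 0.50 ± 0.14 (SE), but did not pass (limma adjusted p = 0.249 and 0.318). Over all probe sets, 0.259% did not overlap with the impaired group higher. For aged unimpaired against young limma called 0 of 11, with 0 at an unadjusted p under 0.05.

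Mature oligodendrocytes are the main, though not the only, cells known to make Klk6. Of 24 tested genes 4 rose in aged impaired against young samples, namely Mog, Mag, Aspa and Myrf, the transcription factor of myelination (0.88 ± 0.15 SE, limma adjusted p = 0.00544), and 0 fell, where 1.3% of all named genes rose and 0.594% fell. The list's median difference was 0.19, against 2.50 for Klk6, and its mean was 11.07 ± 0.06, 10.91 ± 0.14 and 10.83 ± 0.16 (SD, n = 6 each) in the aged impaired, the aged unimpaired and the young samples. For aged unimpaired against young limma called 0, with 3 at an unadjusted p under 0.05 and a median of 0.03. With the oligodendrocyte list mean as a covariate the Klk6 difference was 2.05 ± 0.39 (SE) for aged impaired minus young, 1.64 ± 0.31 (SE) for aged unimpaired minus young and 0.41 ± 0.34 (SE) for impaired minus unimpaired. The oligodendrocyte list shares Enpp2 with the choroid plexus list.

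A further 10 genes are known from Klk6-bearing or reactive oligodendrocytes, and 9 were tested. Il33, a nuclear cytokine of oligodendrocytes and astrocytes, Apod, a lipid carrier, and Serpina3n rose in aged impaired against young samples. In that comparison 1.3% of all named genes rose and 0.594% fell. The difference was 0.99 ± 0.21 (SE, limma adjusted p = 0.0249) for Apod and 0.58 ± 0.14 (SE, limma adjusted p = 0.0470) for Il33. None was called in the other 2 comparisons. Serpina3n, Mog, Mag, Apod and Il33 are the 5 genes called among the protease, inhibitor, receptor, substrate, reactive oligodendrocyte, synaptic and immediate early lists, and 2 genes were called there without aged impaired replicate 2 or 6 or without young replicate 2. Serpina3n is also in the inhibitor list, and Mog and Mag are also in the oligodendrocyte list. S100b is in both the reactive oligodendrocyte and the astrocyte list. Of 13 tested astrocyte genes Gfap alone was called (0.77 ± 0.14 SE, limma adjusted p = 0.00992, aged impaired minus young), and of 11 tested precursor genes Gpr17, a receptor of differentiating precursors, fell (-0.71 ± 0.12 SE, limma adjusted p = 0.00532).

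Microglia, the immune cells of the brain, had the most called genes of any list. Of 19 tested microglia genes 14 rose in aged impaired and 4 in aged unimpaired against young samples, and 0 fell, where 1.3% and 0.114% of all named genes rose. The median differences were 0.80 and 0.60. The list mean ran from 9.56 to 10.19 in aged impaired, 9.35 to 10.12 in aged unimpaired and 8.66 to 9.04 in young samples. C1qb, a complement subunit, had a difference of 0.95 ± 0.12 (SE, limma adjusted p = 4.21e-04) for aged impaired minus young. With the microglia list mean as a covariate, which was chosen after seeing the data and itself differs between the age groups without overlap, the Klk6 difference was 0.80 ± 0.44 (SE) for aged impaired and 0.49 ± 0.37 (SE) for aged unimpaired minus young. Whether microglia have a part in the level of Klk6 was not tested.

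Between the lowest and the highest sample of each group, Klk6 varied more than Klk8. The highest sample had 3.44, 3.84 and 2.54 times the deposited Klk6 signal of the lowest in the aged impaired, aged unimpaired and young groups. For Klk8 these ratios were 1.61, 1.36 and 1.49. The young Klk6 ratio rests on replicate 2 at 12.6, since the other young samples lay between 26.6 and 32.0. The aged unimpaired one rests largely on replicate 6 at 254, with the others between 66.2 and 123. To see which transcripts follow this spread, the group mean was removed from every gene and Pearson's r with Klk6 was taken over the 18 samples for 13120 other named genes. Those values describe these arrays and carry no p, since the genes named are the extremes of the ranking. Over all genes the median r was 0.01, and the upper 1% of genes began at 0.67.

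Osmr, a receptor subunit for the cytokine oncostatin M, followed Klk6 most closely (r = 0.86, Spearman's rho = 0.78). Next came Zmym4, a zinc finger protein (r = 0.84), Timp1, an inhibitor of matrix metalloproteinases made by reactive astrocytes (r = 0.84), and Trap1, a mitochondrial chaperone (r = 0.83). They were followed by She, an adaptor protein (r = 0.82), Acp2, a lysosomal phosphatase (r = 0.82), Zfp507, a zinc finger protein (r = 0.81), Fcrls, an Fc receptor-like protein of microglia (r = 0.81), Lyz1, a lysozyme of macrophages (r = 0.81), and Galnt6, a glycosyltransferase (r = 0.80). Leaving out the 2 samples with the largest Klk6 deviations, aged unimpaired replicate 6 and aged impaired replicate 1, the r of these 10 genes lay between 0.60 for She and 0.82 for Acp2, and 3 of the 10 stayed among the first 10 without those 2. Second probe sets had an r of -0.40 for Trap1, 0.24 for Zmym4 and 0.47 for Osmr. The 2 further ones of Galnt6 had 0.48 and 0.06, so those ranks hold for the brightest probe set. Further probe sets of Acp2 had 0.56 and 0.61, and that of Lyz1 had 0.76. Within the young samples alone r was only 0.17 for Lyz1, 0.31 for She and 0.39 for Zfp507, and at most 0.97, for Timp1. Both Klk6 and Timp1 stood low in young replicate 2, with deviations from the group mean of -0.80 and -0.81. Within each aged group Lyz1, She and Zfp507 had an r of 0.79 to 0.95.

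Osmr lay between 8.04 and 8.75 in aged impaired, 7.91 and 8.67 in aged unimpaired and 7.17 and 7.67 in young samples, so its aged groups also lay above the young one. Its difference was 0.99 ± 0.15 (SE, limma adjusted p = 0.00209) for aged impaired and 0.73 ± 0.15 (SE, limma adjusted p = 0.0639) for aged unimpaired minus young. Timp1 averaged 6.96 ± 0.50, 6.57 ± 0.76 and 6.03 ± 0.43 (SD, n = 6 each) and was not called. Of the 10 genes Osmr, Lyz1 and Galnt6 rose in aged impaired against young samples, where 1.3% of all named genes did. The probes of Lyz1 can match the near-identical Lyz2. The other 7 were not called in any comparison, and the differences of Trap1, She, Acp2, Zfp507 and Fcrls between groups were at most 0.09 in size.

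The genes that ran opposite to Klk6 were Pid1 (r = -0.85), Rgs19, a regulator of G protein signalling (r = -0.84), Tafa5, a secreted neuronal protein (r = -0.82), the noncoding Snhg4 (r = -0.82) and Prelid3b, a mitochondrial protein (r = -0.80). For Rgs19 and Tafa5 second probe sets had an r of -0.66 and -0.54. Without the 2 samples with the largest Klk6 deviations, r ran from -0.82 for Tafa5 to -0.63 for Prelid3b. Within the young samples alone it ran from -0.85 for Tafa5 to -0.33 for Prelid3b. Pid1 fell in aged impaired against young samples (-0.38 ± 0.06 SE, limma adjusted p = 0.00307). It lay between 10.35 and 10.54 in aged impaired and between 10.71 and 10.92 in young samples.

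**Figure D3:**
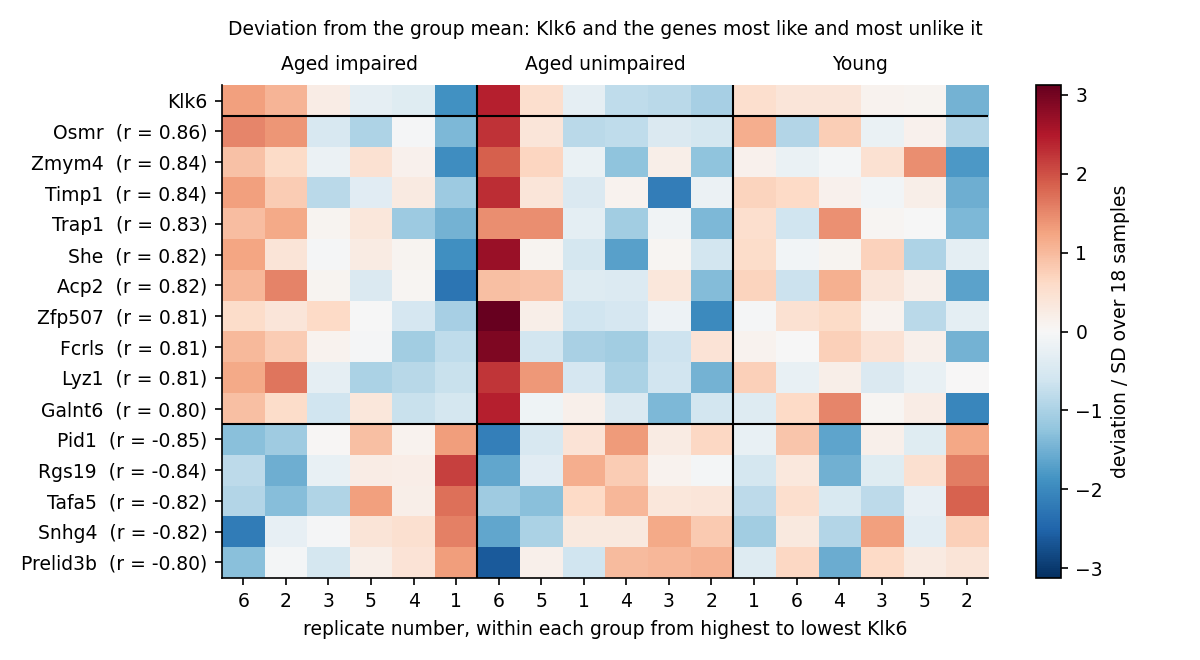
Each cell is a sample's deviation from its group mean, divided by the gene's SD over the 18 samples, for Klk6 and the 10 genes most like and 5 genes most unlike it, with samples ordered by Klk6 within each group. Aged unimpaired replicate 6, in which Klk6 lay 1.31 above its group mean, and aged impaired replicate 1, in which it lay 1.03 below, are the samples that deviate most in Klk6.

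Klk6 and Klk8 did not follow each other within groups (r = -0.04, rho = -0.01 over 18 samples, and r = 0.01 without the 2 samples with the largest Klk6 deviations). Klk8 ranked 7394th of 13120 genes by likeness to Klk6.

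The median r with Klk6 was highest for the microglia list (0.57, with 19 of 19 genes above 0), followed by fibroblast and meningeal genes (0.43), the substrate list (0.38), the reactive oligodendrocyte list (0.36) and choroid plexus genes (0.35). It was 0.28 for mature oligodendrocytes and lowest for CA1 neurons (-0.44, with Dcn as the 1 gene of 10 above 0). Dcn is also in the fibroblast and meningeal list. The microglia list mean had r = 0.74 and rho = 0.57 with Klk6, and r = 0.65 without the 2 samples with the largest Klk6 deviations. The reactive oligodendrocyte list mean had r = 0.70, rho = 0.66 and r = 0.66 without those samples, and the precursor list mean r = 0.65, rho = 0.67 and r = 0.59. By rho the precursor, substrate (0.66), reactive oligodendrocyte, CA1 neuron (-0.61) and fibroblast (0.59) list means were all farther from 0 than the microglia list mean. The gene of highest r in each list, picked out after the values were seen, was Csf1r among microglia genes (0.79), A2m among inhibitors (0.74), Serpina3n in the reactive oligodendrocyte list (0.73) and Mog among oligodendrocyte genes (0.69).

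The Klk6 deviations also went with the median signal of the array (r = 0.58, rho = 0.54, and 0.47 without the 2 samples), and less with the ratio of 3' over 5' probe signal of housekeeping controls, a sign of RNA quality (r = 0.19, rho = 0.18). The deposited arrays already shared a trimmed mean of 150, so their median is not a measure of array brightness. The part of these array measures in the likeness ranking was not tested.

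For Klk8 the lists of highest median r were dentate granule cells (0.43, with 11 of 12 above 0), mature oligodendrocytes (0.40, with 23 of 24 above 0) and CA1 neurons (0.37), and that of the microglia list was 0.05. By list mean the order turned. Mature oligodendrocytes had r = 0.64, rho = 0.61 and r = 0.53 without the 2 samples with the largest Klk8 deviations. In the same order, dentate granule cells had 0.55, 0.36 and 0.27, and CA1 neurons had 0.28, 0.16 and 0.19. The CA2 and CA3 neuron list had a median r of 0.004, and its mean had -0.26, -0.32 and -0.33. The single genes most like Klk8 were Klf13, a Krüppel-like transcription factor (r = 0.87), Prkrip1 (0.84), Dyrk3, a kinase (0.78), Gdf9 (0.77) and Gstm7, a glutathione transferase (0.76). Those most unlike it were Cd44, the receptor of hyaluronan (-0.84), 6330403K07Rik (-0.84) and Tgif1, a transcriptional repressor (-0.80). Second probe sets had an r of 0.35 for Klf13, 0.18 for Prkrip1 and, with the opposite sign, -0.32 for Gstm7, and the 2 further ones of Cd44 had -0.50 and -0.76. None of these 8 genes was called in any comparison.

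**Figure D4:**
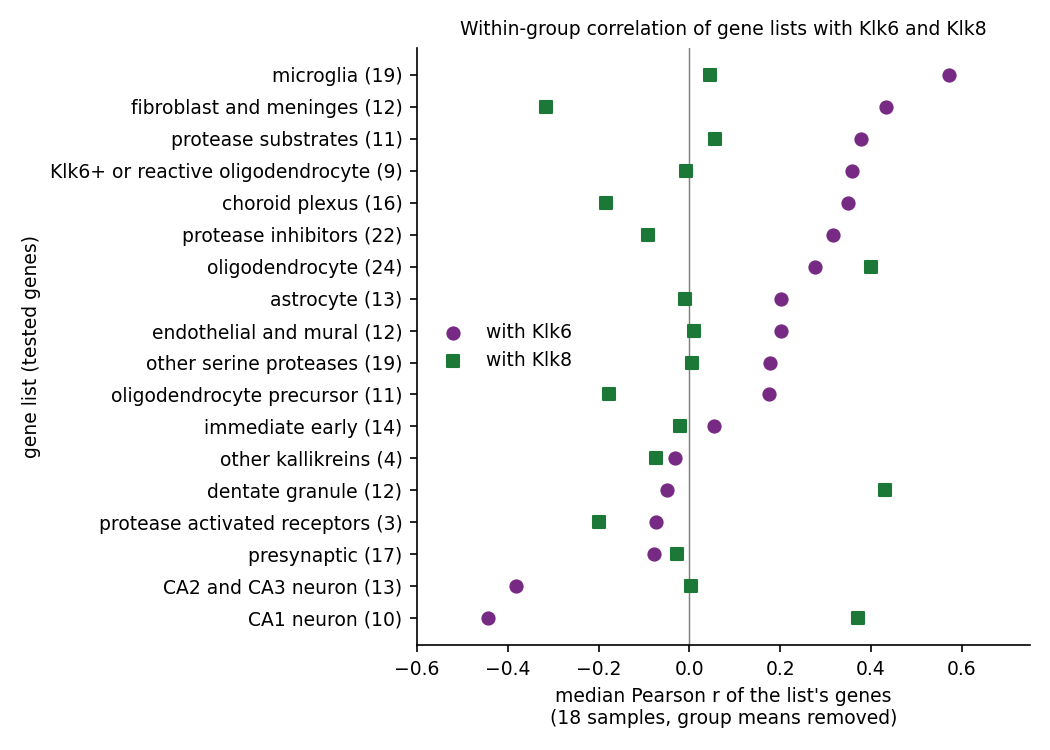
The median Pearson r of each list's tested genes with Klk6 (circles) and with Klk8 (squares) is plotted over the 18 samples with group means removed. For Klk6 the microglia list lies highest at 0.57 and CA1 neurons lowest at -0.44, and for Klk8 the same lists lie at 0.05 and 0.37.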

How the data were processed

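Total RNA of mouse hippocampus was hybridised to 1 Affymetrix array per sample. The probe set intensity values were deposited by the authors on a linear scale and come, per the submitters' processing notes, from MAS5, with no version or settings named. Detection calls were not used here. The deposited arrays already shared a trimmed mean of 150 (trimming 2% per tail). Signals were multiplied by about 3.33 to bring that mean to 500, and turned into log2(signal + 16). Leaving out 64 controls and the dimmest 40% of the remainder by mean kept 27022 probe sets. Symbols came from the platform annotation, updated through RefSeq GRCm38.p6 (34754 probe sets matched). A gene is represented by its brightest probe set.

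The model of 3 group means over all 18 samples used limma 3.58.1 (R 4.3.3), and was tested on simulated data first. Tests are 2-sided, and calls need a Benjamini-Hochberg adjusted p under 0.05 over all probe sets. The genes named are Klk6, Klk8, every tested kallikrein, up to 4 genes of lowest p per list and comparison, and the 10 most like and 5 most unlike Klk6 (5 and 3 for Klk8). Members and lists were chosen with earlier results of these data known. Sample numbers did not pair samples across groups: the deviations of 18 same-numbered pairs correlated at -0.25 to 0.10, none above 0.1. Alternatives covered normalization, offset, filter, the sample number as block, moderation, samples fitted, covariates and leaving out each sample. The number of arrays limits the precision.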

Additional observations from a re-analysis of the deposited data

Results flagged for a closer look

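Among groups of 6 samples, a sample is picked out here when its gap to the nearest other exceeds 0.625 of the group's range, which chance gives in about 1 of 20 groups. Of 246 groups examined 16 had such a sample. Klk6 was low in young replicate 2 (5.86, nearest 6.71), and so were Timp1 (5.22) and Fcrls (9.11). Timp1 and Fcrls were named for following Klk6 over these samples, so their flags are not independent of that ranking. F2r was high in young replicate 2 (8.66). In aged unimpaired replicate 6, the sample with the highest Klk6 of its group, Serpina3n (11.10), Tyrobp (10.89), Clec7a (9.60) and the microglia list mean (10.12) stood high. Clec7a was low in young replicate 6 (4.39), and Cd44 in young replicate 4 (7.08). In aged impaired replicate 2 Dyrk3 (8.11) and Gdf9 (6.07) were low and the mean of the immediate early list high (9.52). S100b (12.26) and the mean of the CA2 and CA3 list (10.36) were high in aged impaired replicate 1, and Reln in aged unimpaired replicate 5 (11.09). Dyrk3, Gdf9 and Cd44 were named for their r with Klk8 over these samples, so their flags are not independent of that ranking.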

How the results depend on the processing

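The direction of the Klk6 difference held under all 24 alternatives in each comparison. For impaired against unimpaired it ranged from 0.31 with the microglia covariate, chosen after seeing the data, to 0.98, with limma adjusted p from 0.286 to 0.923, and with the sample number as replicate block the difference was 0.72 (adjusted p = 0.600). Leaving out 1 sample gave 2.34 to 2.71 for aged impaired and 1.53 to 1.90 for aged unimpaired minus young, against 0.80 and 0.49 with the microglia covariate. The Klk8 difference for aged impaired minus young was -0.17 with the oligodendrocyte covariate. The lists of kallikreins, other proteases, inhibitors, receptors, substrates, reactive oligodendrocytes, synapses and immediate early genes held 97 tested genes beside Klk6 and Klk8. Of these 5 were called in aged impaired against young, where 1.3% of all named genes rose and 0.594% fell. The count was 2 without a filter, 3 with the replicate block and 3 with only the groups compared. It was 0 with the oligodendrocyte or microglia covariate, and 2 to 5 without 1 sample. It was 2 without aged impaired replicate 2 or 6 or young replicate 2, and 3 without young replicate 1 or 6. In aged unimpaired against young 0 were called, against 1 with a filter of 60% and 1 with the block, and 0 without any 1 sample. Of the 10 genes most like Klk6, 4 stayed among the first 10 by Spearman's rho, 2 without removing group means, 3 without the 2 samples of largest deviation, and 3 to 9 without 1 sample (3 without aged unimpaired replicate 6, 4 without aged impaired replicate 1 or young replicate 2, 6 without young replicate 6). No other probe set of Klk6 or Klk8 was in the table, so that alternative gave no value. Young Klk6 signals are dim, and the offset of 1 or 64 in place of 16 gave 2.71 or 2.06 for aged impaired minus young.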
